A study of Mus musculus with 84 samples.

Results

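Kainate and delta receptors are branches of the ionotropic glutamate receptor family. The 6 genes described here were Grik1, Grik2, Grik3, Grik4 and Grik5, which encode the kainate receptor subunits GluK1 to GluK5, and Grid1, which encodes the delta receptor subunit GluD1. They were taken by symbol from the 55401 Ensembl gene IDs of the count files, and all 6 were among the 17941 genes with enough counts to be tested. RNA-seq had been run on neuronal nuclei, sorted for the neuronal nuclear protein NeuN, from the frontal cortex anterior to bregma +1 mm. All mice were of the strain 129S6/SvEvTac and 12 weeks old. The vehicle group received no DOI, and the other groups were sampled 24 h, 48 h or 7 days after DOI (2,5-dimethoxy-4-iodoamphetamine), a serotonin receptor agonist of the psychedelic class. Each group as analysed had 4 mice with 2 libraries per mouse, 16 mice in all. The dose, and the time at which vehicle mice were sampled, are not given in the sources used here.

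GluK1, GluK2 and GluK3 can form ion channels by themselves, whereas GluK4 and GluK5 bind glutamate and kainate with high affinity and reach the cell surface only in assemblies with GluK1, GluK2 or GluK3. Kainate receptors act on both sides of the cortical synapse, where they tune transmitter release and slow excitatory currents. GluD1 is assembled like the other subunits but is not opened by glutamate in the usual way, and it holds synapses together by binding secreted cerebellins, which in turn bind presynaptic neurexins.

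The lowest and highest total counts were 9151680 and 11517452 among vehicle mice, 6441396 and 8090559 in the 24 h group, 5834248 and 7344355 in the 48 h group, and 6972577 and 12354785 in the 7-day group. The 5 pan-neuronal markers, Rbfox3 for NeuN itself among them, had counts in every mouse. They summed to 5538 to 5794 CPM (counts per 1000000, scaled between mice) for vehicle and 3965 to 6002 at 24 h. At 48 h the sum was 3762 to 5815 CPM and at 7 days 4228 to 5774. Among these markers Snap25 alone had a mean of 4101 CPM in vehicle mice, 2738 at 24 h and 2669 at 48 h. A gene annotated as an 18S ribosomal RNA pseudogene took 0.00695% to 0.0101% of counts in vehicle mice but 0.328% to 1.57% at 24 h and 0.523% to 1.66% at 48 h. Among the 7-day mice it took 0.00835% of counts in the first, 0.633% in the second, 0.00608% in mouse 3 and 0.474% in mouse 4. The group explained 75.1% of the variance of this share on the log2 scale and 56.9% of that of the mitochondrial share, so DOI at 24 h or 48 h and the 18S share cannot be told apart. Fewer detected genes set 24 h mouse 1 (22989) and 48 h mouse 1 (21266) apart from their groups.

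Markers of glia and blood vessels were also measured. The 6 astrocyte markers summed to 268.6 to 307.5 CPM for vehicle, 168.8 to 254.5 for the 24 h mice, without overlap, and 120.4 to 289.6 for the 48 h mice. The 6 microglia markers summed to 69.6 to 107.7, 42.7 to 84.7 and 46.0 to 74.2 CPM in the same order, the 4 endothelial markers to 26.3 to 43.3, 16.6 to 31.3 and 11.1 to 29.9 CPM, and the 6 oligodendrocyte markers to 164.4 to 363.9, 160.0 to 236.1 and 183.4 to 242.2 CPM. Of these lists 5 of 6, 4 of 6, 1 of 4 and 6 of 6 genes had counts in every mouse, and Gfap, C1qa, Aif1, Cldn5, Flt1 and Pecam1 were at 0 in at least 1 mouse. The part of these markers in the results at 24 h and 48 h was not tested, and in bulk nuclei fewer cells of a type and less RNA per cell cannot be told apart.

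Grik3 and Grik4 rose after DOI, and they were the 2 of the 6 genes past the threshold at both 24 h and 48 h (edgeR quasi-likelihood test, adjusted p below 0.05 over all 17941 genes). Of all genes 24.2% passed at 24 h and 30.1% at 48 h, a share near that of these 6. Grik3 was 2.03-fold and Grik4 2.2-fold above vehicle at 24 h, and both were still more than doubled at 48 h. Grik5, per exon length the most abundant kainate subunit transcript of vehicle mice, was lower in every mouse at 24 h and 48 h than in any vehicle mouse, without passing the test. Such a lack of overlap was seen for 35.7% of all genes at 24 h and 38.1% at 48 h. Grik1, Grik2 and Grid1 overlapped the vehicle range at both times. At 48 h, though, Grik2 reached 128 CPM where the highest vehicle mouse had 104. Grid1 at 48 h went down to 10.1 CPM where the lowest vehicle mouse had 15.6. At 7 days none of the 6 passed.

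The 5 kainate genes and Grid1 lie on 6 chromosomes of the mouse build GRCm38. Grik1 spans 16:87895900-88290265, Grik2 10:49094833-49788766, Grik4 9:42518135-42944493 and Grik5 7:25009849-25072346, all on the minus strand, while Grik3 spans 4:125490700-125714173 and Grid1 14:34820108-35583379 on the plus strand. These are long genes in which annotated exons make up between 0.78% (Grid1) and 8.27% (Grik5) of the span, and only reads on exons were counted. Exons shared with another gene were limited to 59 bases of Grik4 and 91 bases of Grid1, 0.99% and 1.53% of their exon length. The sequence just before the gene start is shown for the 2 genes called at 24 h and 48 h, Grik3 and Grik4, and for Grik5, which was not called, a choice made after their values were seen. Each is 120 bases long, covers the bases from 250 to 131 before the RefSeq start (GRCm38.p6), reads 5′ to 3′ along the gene's strand, and has each CG dinucleotide in capitals. The windows are chr4:125490446-125490565 (plus strand), chr9:42944502-42944621 (minus strand) and chr7:25072500-25072619 (minus strand).
Grik3: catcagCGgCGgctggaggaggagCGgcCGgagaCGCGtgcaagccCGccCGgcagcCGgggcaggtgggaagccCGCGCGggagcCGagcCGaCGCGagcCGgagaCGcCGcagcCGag
Grik4: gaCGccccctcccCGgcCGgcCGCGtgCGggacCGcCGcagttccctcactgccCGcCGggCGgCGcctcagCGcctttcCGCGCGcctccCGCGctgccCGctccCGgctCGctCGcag
Grik5: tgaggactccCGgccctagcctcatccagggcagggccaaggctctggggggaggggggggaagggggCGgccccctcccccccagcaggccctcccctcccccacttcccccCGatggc

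The windows of Grik3 and Grik4 held 20 and 22 CG dinucleotides, more than 98.8% and 99.4% of the 32851 windows of the same length and position in the RefSeq table, whose median was 2. That of Grik5 held 3, although its G and C content of 76.7% was close to the 79.2% of Grik3 and the 82.5% of Grik4. The letters GGGCGG, read on either strand, occurred in all 3 windows and in 12.8% of all windows. The table held windows for 4 of the 6 genes. The fourth, Grik2, had 5 CG dinucleotides, a G and C content of 57.5% and no GGGCGG.

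Per kilobase of exon, the vehicle mice had most Grik5 at 12.1 ± 1.47 RPKM (SD, n = 4), where RPKM is CPM divided by the exon length in kilobases. Grik2 (6.80 ± 0.892), Grik1 (6.65 ± 2.22) and Grik3 (5.66 ± 0.677) followed with ranges that overlapped. Below them came Grik4 at 4.22 ± 0.290 RPKM and Grid1 at 3.06 ± 0.467 RPKM. The ranges of Grik5 and Grik2 did not overlap, nor did those of Grik3 and Grik4 or of Grik4 and Grid1. After 24 h of DOI the order was Grik3 (11.5 ± 3.27 RPKM), Grik4 (9.28 ± 2.55), Grik5 (8.42 ± 0.931), Grik2 (6.81 ± 0.645), Grik1 (6.53 ± 1.23) and Grid1 (3.23 ± 0.792). It was the same by mean at 48 h, with Grik3 at 13.9 ± 4.35 RPKM, Grik4 at 9.08 ± 2.33 and Grik5 at 8.98 ± 0.673, and neighbours from Grik3 to Grik1 overlapped at both times. By 7 days Grik5 (11.9 ± 5.02 RPKM) again had the highest mean, before Grik2 (9.30 ± 2.45), Grik3 (8.48 ± 2.54), Grik1 (7.26 ± 1.40), Grik4 (3.69 ± 1.27) and Grid1 (3.13 ± 0.488). The plot of levels by mouse shows the scaled counts behind these orders.

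**Figure D1:**
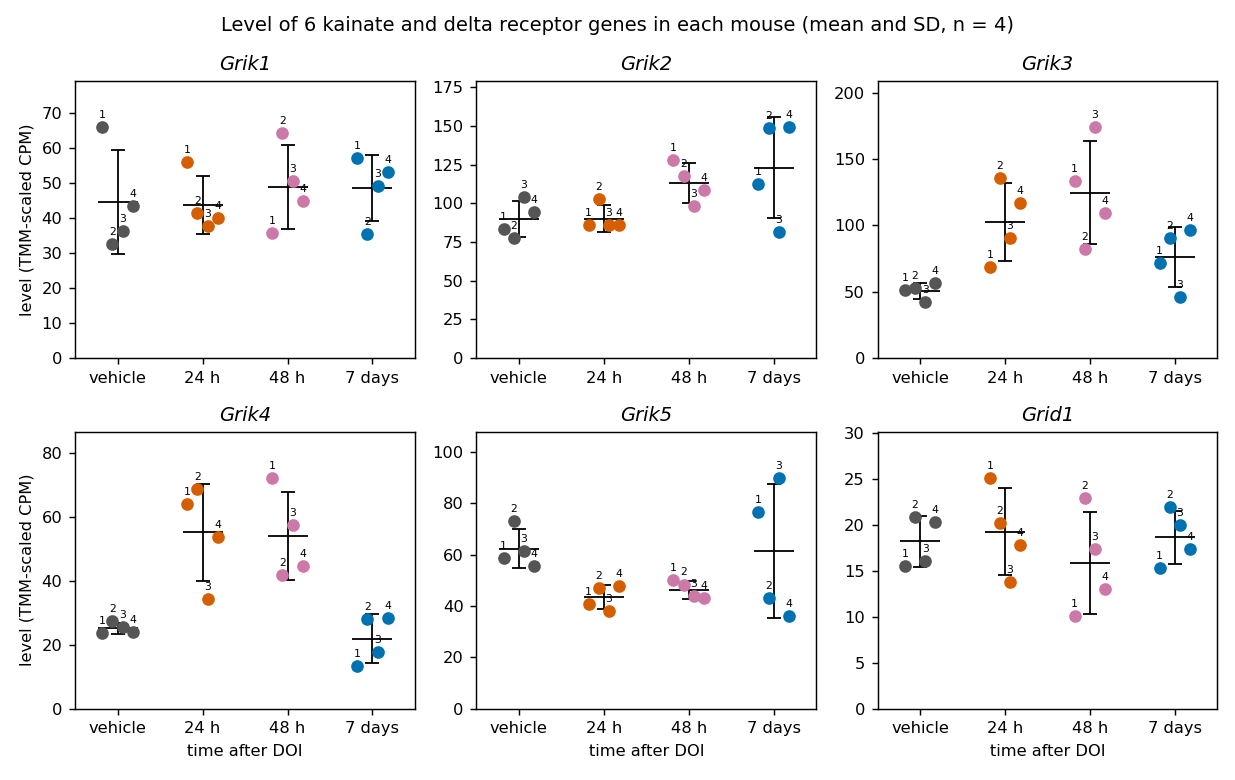
Each panel plots the level of 1 gene in TMM-scaled CPM, from a zero baseline, against the group; points are mice with their number, horizontal bars the mean and vertical bars the SD (n = 4). Grik3 and Grik4 of all mice at 24 h and 48 h lie above all vehicle mice and Grik5 of all these mice lies below, while Grik4 at 7 days stays between 13.4 and 28.5 CPM.

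Grik3 encodes one of the subunits that can form channels by themselves. GluK3 is known for a low sensitivity to glutamate and for presynaptic sites. Grik3 was at 51.7, 53.1, 42.2 and 56.3 CPM in vehicle mice 1 to 4. It was at 68.9, 135, 90.3 and 117 CPM in the 24 h mice and at 134, 82.0, 174 and 110 CPM in the 48 h mice. Every mouse at 24 h and 48 h was above every vehicle mouse, with the lowest of them 24 h mouse 1. Relative to vehicle, the log2 change of Grik3 reached 1.02 at 24 h (SE 0.26, edgeR adjusted p = 0.0113), then 1.30 at 48 h (SE 0.26, adjusted p = 0.00277). With the 18S share as a covariate these became 0.04 (adjusted p = 0.995) and 0.27 (adjusted p = 0.996), and with the mitochondrial share the 48 h value was 0.75 (adjusted p = 0.319).

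Grik4 encodes one of the pair of high-affinity subunits and is the rarer of them in vehicle cortex. Its level in vehicle mice 1 to 4 was 23.8, 27.5, 25.5 and 23.9 CPM, the narrowest spread of the 6 genes at 6.88% of the mean. It was 64.1, 68.8, 34.5 and 53.9 CPM in the 24 h mice and 72.3, 41.9, 57.5 and 44.8 CPM in the 48 h mice. Again no mouse at 24 h or 48 h overlapped the vehicle range. Grik4 had a log2 change of 1.13 after 24 h (SE 0.26, edgeR adjusted p = 0.00677), followed by 1.10 after 48 h (SE 0.26, adjusted p = 0.00624). Adding the 18S share as a covariate gave 0.28 (adjusted p = 0.971) and 0.19 (adjusted p = 0.996), and with the mitochondrial share 0.84 (adjusted p = 0.293) at 48 h.

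Grik5, the other high-affinity subunit gene, had lower values in every mouse at 24 h and 48 h. GluK5 is the usual partner of GluK2 in brain kainate receptors. Its gene was at 58.8, 73.1, 61.4 and 55.7 CPM in vehicle mice 1 to 4, then at 41.0, 47.2, 38.0 and 47.9 CPM at 24 h and 50.3, 48.4, 43.9 and 43.1 CPM at 48 h. The groups did not overlap, yet neither the 24 h change of -0.52 on the log2 scale (SE 0.23, edgeR adjusted p = 0.113) nor the 48 h change of -0.42 (SE 0.23, adjusted p = 0.175) passed. Fitted on vehicle and that DOI group alone, which also changed the filter, the values were -0.49 (adjusted p = 0.0272) and -0.40 (adjusted p = 0.0495). Those fits called 6063 of 16512 genes at 24 h and 6824 of 16424 at 48 h, where the fit over 4 groups called 4346 and 5395 of 17941. With the 18S share as a covariate the sign turned, to 0.45 (adjusted p = 0.961) and 0.59 (adjusted p = 0.996).

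For the remaining genes the log2 changes at 24 h and 48 h were at most 0.33 in size. Grik2, whose product GluK2 is the most widespread kainate subunit of the forebrain, was at 83.7, 77.7, 104 and 94.3 CPM in vehicle mice. At 24 h it was at 85.9, 103, 86.0 and 85.8 CPM, a log2 change of 0.00 (SE 0.19, edgeR adjusted p = 0.994). The 48 h mice were at 128, 118, 98.1 and 108 CPM, a log2 change of 0.33 (SE 0.19, adjusted p = 0.186) with one mouse inside the vehicle range. Grik1, which in cortex is known for its expression in interneurons, spanned 32.6 to 66.0 CPM among vehicle mice, 37.8 to 56.1 among those of 24 h, and 35.8 to 64.3 among those of 48 h. Its log2 changes were -0.03 (SE 0.24, adjusted p = 0.943) and 0.13 (SE 0.24, adjusted p = 0.711). All 8 inhibitory neuron markers had counts in every mouse. Their sum spanned 1677 to 3155 CPM for vehicle, 1984 to 2845 for the 24 h mice, 1981 to 3047 for the 48 h mice and 1787 to 3207 for the 7-day mice. The mouse with the highest Grik1 had the highest such sum in the vehicle group (3155 CPM) but the lowest at 24 h (1984 CPM) and 48 h (1981 CPM). At 7 days the mouse with the lowest Grik1, mouse 2, had the highest sum, 3207 CPM. The part of these markers in the Grik1 level was not tested. The 6 excitatory neuron markers summed to 294.8 to 362.4 CPM for vehicle. Their sum was 273.0 to 326.7 CPM at 24 h and 258.6 to 314.3 at 48 h, and their part was not tested either.

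Grid1 had the fewest counts of the 6, between 70 and 209 per mouse. Its range was 15.6 to 20.9 CPM among vehicle mice and 13.8 to 25.1, 10.1 to 22.9 and 15.3 to 22.0 CPM in the groups sampled after 24 h, 48 h and 7 days. The groups overlapped at every time, with log2 changes of 0.08 (SE 0.26, edgeR adjusted p = 0.849), -0.20 (SE 0.26, adjusted p = 0.58) and 0.03 (SE 0.26, adjusted p = 0.963). An SE of 0.26 leaves a change well below that of Grik3 or Grik4 undetectable with these mice and this depth.

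**Figure D2:**
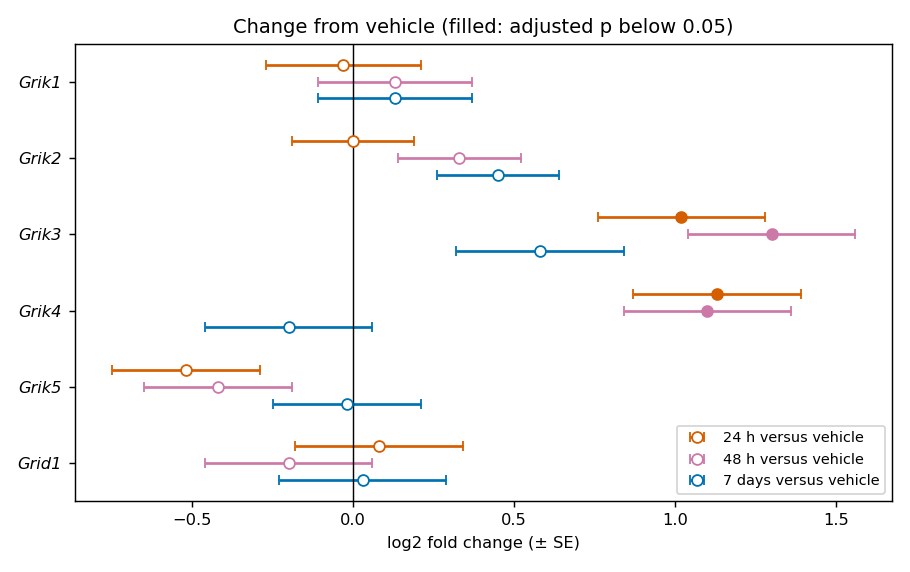
The horizontal axis gives the log2 fold change from vehicle with its SE for each gene, colours give the time after DOI, and filled points have an adjusted p below 0.05. The 4 filled points are Grik3 and Grik4 at 24 h and 48 h, between 1.02 and 1.30.

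Counts over the 6 genes have to be read against a transcriptome in which many genes moved. At 24 h 2 of the 6 genes rose and 0 fell, where 24.2% of all tested genes were called, 13.8% higher and 10.4% lower. At 48 h again 2 rose and 0 fell, where 30.1% were called, 16.8% higher and 13.3% lower. Groups that did not overlap occurred for 3 of the 6 genes at both times, against 35.7% of all genes at 24 h and 38.1% at 48 h. Their median log2 change was 0.04 at 24 h and 0.23 at 48 h, beside 0.03 and 0.02 over all genes. Over the 4 groups at once, 2 of the 6 passed, Grik3 and Grik4, against 18.8% of all genes. All 3 DOI groups were compared with the same 4 vehicle mice. Between 48 h and 24 h 0 of the 6 genes were called by edgeR or by DESeq2, and 0 had an unadjusted p under 0.05. Over all genes 0.0% were called and 1.96% had groups without overlap.

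Per exon length, the make-up of the kainate subunit pool is described next, and the plot of subunit shares shows it for each mouse. These shares are a description and carry no test. The sum of the 5 subunits was 35.4 ± 1.36 RPKM for vehicle, 42.5 ± 5.97 and 47.8 ± 5.02 for the 24 h and 48 h groups, and 40.6 ± 1.49 for the 7-day group (SD, n = 4). Grik5 made up 34.1% ± 4.35 (SD, n = 4) of this sum under vehicle, and after DOI 19.9% ± 1.33 by 24 h, 18.9% ± 2.11 by 48 h and 29.4% ± 12.9 by 7 days. Grik3 made up 16% ± 1.85, 26.8% ± 5.52, 28.7% ± 6.61 and 20.8% ± 6.02 in the same order. Grik4 held 12.0% ± 1.02, 21.6% ± 4.13, 18.8% ± 3.23 and 9.10% ± 3.14. The high-affinity subunits together held 46.1% ± 5.30 in vehicle mice and 41.5% ± 3.34 at 24 h, with overlapping ranges of 41.3% to 53.0% and 37.2% to 45.4%. They held 37.8% ± 3.22 at 48 h, with a range of 34.6% to 42.2%, and 38.5% ± 10.5 at 7 days.

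**Figure D3:**
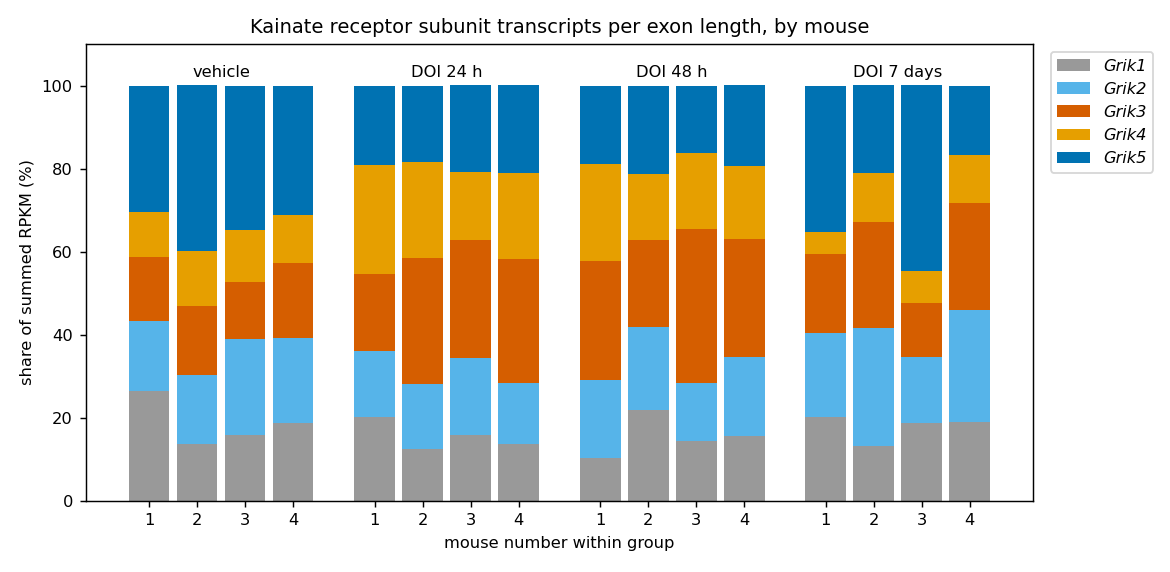
Each bar is a mouse, and its coloured parts are the shares of the 5 kainate subunit genes in their summed RPKM, in percent. Grik5 fills 30.5% to 40.0% of the bar in vehicle mice and 16.2% to 21.3% at 24 h and 48 h, while at 7 days it fills 35.3%, 21.1%, 44.6% and 16.7% in mice 1 to 4.

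The balance between the high-affinity pair can be read as a ratio. Grik4 stood at 0.351, 0.326, 0.359 and 0.373 of the RPKM of Grik5 in vehicle mice 1 to 4. At 24 h the ratio was 1.36, 1.26, 0.786 and 0.974, and at 48 h it was 1.25, 0.750, 1.14 and 0.902. No DOI mouse of either time came near the vehicle values. The 7-day mice 1 to 4 had ratios of 0.151, 0.564, 0.172 and 0.688, so that 2 of the 4 mice were below all vehicle mice and the other two above them.

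At 7 days the 4 mice did not behave as a single group, over all tested genes as well as over these 6. The first principal component of log2 CPM is the axis along which the mice differed most. On it 7-day mice 1 to 4 stood at -87.5, 52.1, -82.9 and 64.8. Vehicle mice stood between -94.6 and -69, and the 24 h and 48 h mice between 22 and 66.2. Grik2 was at 113, 149, 81.7 and 149 CPM in mice 1 to 4, Grik3 at 71.5, 90.8, 45.9 and 96.3, and Grik5 at 76.6, 43.3, 89.9 and 36.0. For all 3 genes mice 2 and 4 lay on one side of mice 1 and 3. Mice 2 and 4 were also the pair with 18S shares of 0.633% and 0.474% and with mitochondrial shares of 0.130% and 0.114%, against 0.0413% and 0.0210% in mice 1 and 3. The 8 striatal markers summed to 1721 and 1164 CPM in mice 2 and 4 and 598 and 364 in mice 1 and 3. The same sum was 244 to 416 CPM for vehicle, 169 to 287 for the 24 h group and 283 to 548 for the 48 h group. Of these 8 markers 6 had counts in every mouse, and Drd2 and Adora2a were at 0 in at least 1 mouse. Several other marker sums split the same mice. For 7-day mice 1 to 4 the astrocyte sum was 338.1, 158.6, 247.4 and 116.4 CPM, the microglia sum 123.5, 55.5, 111.5 and 51.8, the endothelial sum 38.7, 12.6, 33.4 and 4.90, the inhibitory neuron sum 2410, 3207, 1787 and 2944, and the sum of 6 excitatory neuron markers 371.4, 203.6, 280.1 and 238.8. The oligodendrocyte sum (372.9, 237.3, 220.0 and 202.6 CPM) and the pan-neuronal sum (5774, 5265, 4228 and 4581 CPM) did not split them. The part of any of these measures in the 7-day levels was not tested. At 7 days 0 of the 6 genes passed by edgeR and 0 by DESeq2, while 2 had an unadjusted p under 0.05, Grik2 at a log2 change of 0.45 (SE 0.19, adjusted p = 0.231) and Grik3 at 0.58 (SE 0.26, adjusted p = 0.262). Over all genes 0.0% were called, 16.8% had an unadjusted p under 0.05 and 5.85% had groups without overlap. Without mouse 3 of this group Grik2 passed, at 0.61 (adjusted p = 0.0422), in a fit that called 1160 of 18457 genes.

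Grik4 was lower in all 4 mice at 7 days than in any of the 8 mice at 24 h and 48 h. It was at 13.4, 28.1, 17.9 and 28.5 CPM in 7-day mice 1 to 4. Mice 2 and 4, again the higher pair, lay just above the vehicle range of 23.8 to 27.5 CPM. The lower pair lay below this range. The lowest of the 24 h and 48 h mice had 34.5 CPM. In the plot against the 18S share, 7-day mice 2 and 4 had shares of 0.633% and 0.474%. These lay between 24 h mouse 1 (0.328%) and the other 24 h mice (0.872% to 1.57%). In 7-day mice 2 and 4 Grik3 was inside its 24 h range, Grik5 inside or near it and Grik4 below it. The part of the 18S share in these levels was not tested. Against vehicle, 7-day Grik4 had a log2 change of -0.20 (SE 0.26, edgeR adjusted p = 0.728). From 24 h to 7 days the change was -1.33 (SE 0.26, adjusted p = 0.131) and from 48 h to 7 days -1.30 (SE 0.26, adjusted p = 0.125). These did not pass in edgeR but did in DESeq2 (adjusted p = 0.00228 and 0.00339) and without 7-day mouse 2 (0.0308 and 0.0281) or mouse 4 (0.0313 and 0.0321). Over all genes the calls against 24 h and 48 h were 334 and 408 with DESeq2, 251 and 394 without mouse 2, and 308 and 438 without mouse 4. Apart from leaving out single mice, the alternatives gave log2 changes from -1.43 to -0.91 (adjusted p from 0.000738 to 0.526) against 24 h and from -1.55 to -0.81 (0.00135 to 0.683) against 48 h. Leaving out single mice gave -1.50 to -1.15 (adjusted p from 0.0308 to 0.31) and -1.45 to -1.12 (0.0281 to 0.403). Grik4 was the only one of the 6 genes whose 7-day mice did not overlap those at 24 h or 48 h. Over all genes 5.13% and 5.72% were without overlap in these comparisons, and 0.00557% and 0.0% were called.

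**Figure D4:**
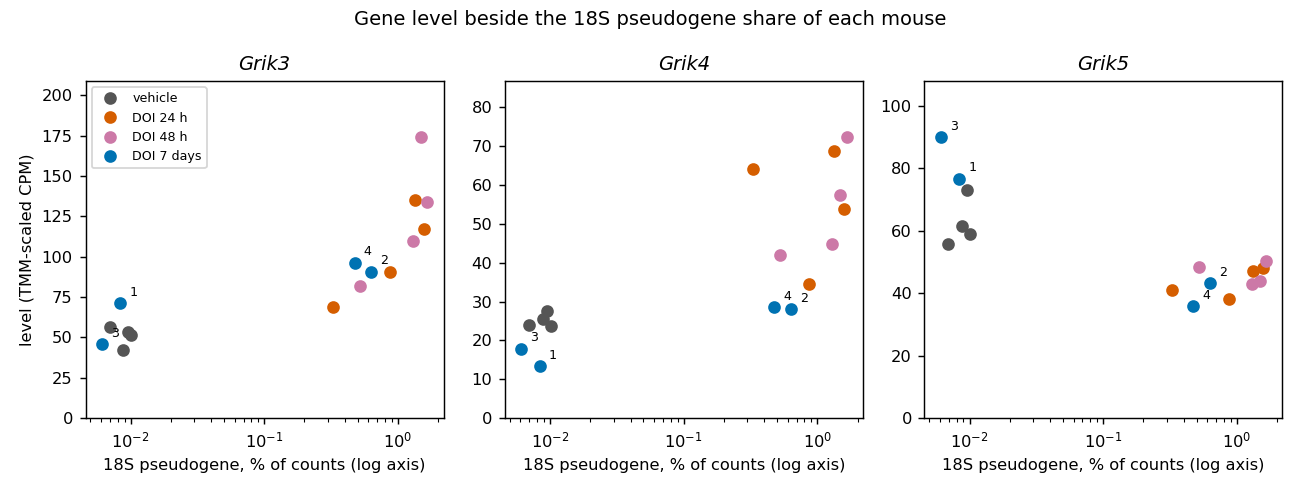
The level in TMM-scaled CPM is plotted against the share of counts on the 18S pseudogene in percent on a log axis, for Grik3, Grik4 and Grik5; points are mice, colours are groups and 7-day mice carry their number. Vehicle mice and 7-day mice 1 and 3 lie at shares up to 0.0101%, and all other mice at 0.328% or more. For Grik4, 7-day mice 2 and 4 have 28.1 and 28.5 CPM, and the 24 h and 48 h mice have 34.5 to 72.3.

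Genes that work with kainate and delta receptors were followed as a list of 35, of which 34 were matched to the files and 32 were tested. C1ql2 and Cbln3 had too few counts to be tested. At 24 h 7 rose and 7 fell, and at 48 h 6 rose and 9 fell, which is 43.8% and 46.9% of those tested beside 24.2% and 30.1% of all genes. The median log2 change over the list was 0.02 at 24 h and 0.15 at 48 h, beside 0.03 and 0.02 over all genes. At 7 days 0 of the 32 passed in edgeR and 7 had an unadjusted p under 0.05, beside 16.8% of all genes. DESeq2 called 2 of them and 758 of all 36481 genes it fitted.

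Neto2 fell more than any other partner tested at 24 h. The Neto proteins are auxiliary subunits that ride with kainate receptors and slow their desensitization. Neto2 was at 258, 230, 222 and 250 CPM in vehicle mice and at 87.1, 76.8, 112 and 83.1 CPM at 24 h, with no overlap. It was at 124, 60.8, 122 and 121 CPM at 48 h and 227, 157, 194 and 151 CPM at 7 days, where mice 2 and 4 were the lower ones. On the log2 scale Neto2 changed by -1.42 after 24 h (SE 0.22, edgeR adjusted p = 0.00153), with -1.17 after 48 h (SE 0.21, adjusted p = 0.00194). Neto1, the gene of the other auxiliary subunit, was at 157 ± 15.5 CPM (SD, n = 4) in vehicle mice, 174 ± 21.5 at 24 h and 193 ± 26.6 at 48 h. Its log2 changes of 0.14 (adjusted p = 0.662) and 0.29 (adjusted p = 0.326) did not pass.

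Of the 14 tested genes for binding proteins and auxiliary subunits, the Neto genes included, 2 rose and 4 fell at 24 h and 2 rose and 5 fell at 48 h, beside 24.2% and 30.1% of all genes called. The scaffold gene Dlg4, which encodes PSD-95, rose by 0.99 (SE 0.28, edgeR adjusted p = 0.0178) and 1.15 (SE 0.28, adjusted p = 0.00704). Dpysl2, for the axonal protein CRMP2, rose by 1.33 (adjusted p = 0.00809) and 1.10 (adjusted p = 0.0161). Pick1, a PDZ protein, fell with log2 changes of -1.05 (adjusted p = 0.0486) and -1.35 (adjusted p = 0.0145), and Nsf, an ATPase of membrane fusion, with -1.01 (adjusted p = 0.0116) and -0.86 (adjusted p = 0.0201). Snap25, a vesicle fusion protein, had -0.58 (adjusted p = 0.0395) and -0.62 (adjusted p = 0.0257). Ctnnb1, for beta-catenin, fell at 48 h, with a log2 change of -0.63 (adjusted p = 0.0228), and had -0.26 (adjusted p = 0.34) at 24 h. The scaffold and adaptor genes Grip1, Cask and Dlg1 were not called at either time. C1ql3, a secreted protein that can recruit kainate receptors, was at 38.9 ± 12.1 CPM in vehicle mice and did not pass at -0.37 (adjusted p = 0.423) and -0.35 (adjusted p = 0.431). Its relative C1ql2 had a mean of 0.454 CPM in vehicle mice, near the 0.283 to 0.341 CPM that 3 counts are worth in them.

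Among 10 genes listed for the editing and modification of kainate subunits, 2 rose and 2 fell at both times, against those same shares of all genes. Adar and Adarb1 encode RNA editing enzymes, and those of Grik1 and Grik2 are among the edited transcripts. Adar rose from 10.0 ± 2.62 CPM in vehicle mice to 51.5 ± 19.3 at 24 h and 63.4 ± 22.3 at 48 h, log2 changes of 2.36 (SE 0.43, edgeR adjusted p = 0.0029) and 2.66 (SE 0.44, adjusted p = 0.00158). Adarb1 was at 85.9 ± 13.1, 88.5 ± 32.3 and 92.0 ± 20.1 CPM and did not pass (0.04, adjusted p = 0.91, and 0.10, adjusted p = 0.778). Camk2a, for a kinase of the postsynaptic density, rose by 2.96 (SE 0.56) at both times, with adjusted p = 0.00308 and 0.00221.

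On the delta receptor side, 3 of 8 tested partners rose and 1 fell at 24 h, and 2 rose and 2 fell at 48 h, where 24.2% and 30.1% of all genes were called. The cerebellins Cbln2 and Cbln4 are secreted by neurons and link delta receptors to neurexins. Cbln2 was at 78.6, 78.5, 68.2 and 62.2 CPM in vehicle mice, 33.7, 41.2, 50.5 and 27.7 CPM at 24 h and 30.4, 27.8, 38.4 and 50.3 CPM at 48 h, without overlap. Its log2 change was -0.91 (SE 0.27, edgeR adjusted p = 0.023) and -0.97 (SE 0.27, adjusted p = 0.0145). Cbln4 had -0.87 (adjusted p = 0.0757) at 24 h and -1.03 (adjusted p = 0.0354) at 48 h. The neurexin genes Nrxn2 (1.14 at both times, adjusted p = 0.00472 and 0.00382) and Nrxn3 (0.59, adjusted p = 0.0212, and 0.70, adjusted p = 0.00747) rose. Cbln1, the cerebellin best known from the cerebellum, was at 0.523 ± 0.318 CPM, close to the floor of 3 counts, with an adjusted p of 0.797 at 24 h and 0.0827 at 48 h. Grid2ip, a delta receptor scaffold, passed at 24 h with 2.62 (SE 0.93, adjusted p = 0.0466), but from 0.381 ± 0.176 CPM in vehicle mice to 2.41 ± 1.10.

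**Figure D5:**
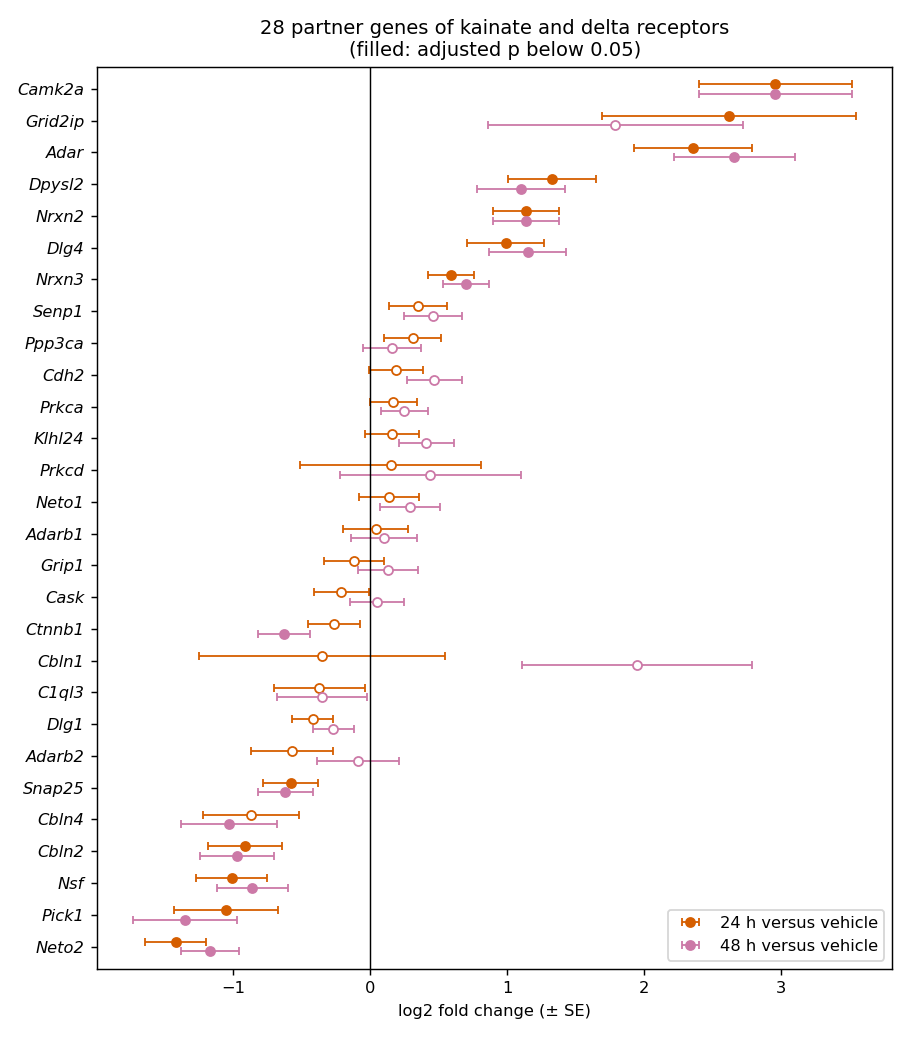
Of the 32 tested partner genes 28 are shown, ordered by their log2 fold change at 24 h, shown with its SE beside that at 48 h, and filled points have an adjusted p below 0.05. Camk2a at 2.96 and Neto2 at -1.42 are the ends of the order at 24 h, and Neto1 and Adarb1 lie near 0 with open points.

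These partner calls rest on the same mice and carry the same limit: with the 18S share as a covariate 0 of the 32 genes were called at 24 h or 48 h, and with the mitochondrial share 7 were called at 24 h and 0 at 48 h. Leaving out 1 mouse at a time gave 8 to 13 partner calls at 24 h, the lowest without vehicle mouse 1 or 2 or 24 h mouse 4 and 9 without 24 h mouse 2.

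The AMPA and NMDA receptor genes give the nearest measure for comparison. Of 10 tested, 3 rose and 1 fell at 24 h, and 2 rose and 1 fell at 48 h, beside 24.2% and 30.1% of all genes called. One of the 3 at 24 h, Grin2c, overlapped vehicle, with 20.6, 2.83, 0.761 and 3.20 CPM in 24 h mice 1 to 4 where vehicle spanned 0.944 to 2.16, so that its mean rested on mouse 1. Grin2b rose by 1.61 (edgeR adjusted p = 0.00308) and 1.63 (adjusted p = 0.00209), a log2 change of the same order as those of Grik3 and Grik4, and Gria2 fell by 0.85 at both times (a log2 change of -0.85 with adjusted p = 0.0069 and 0.00553).

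For each of the 6 genes the protein-coding genes with the most similar profile were found from the root mean square difference of centred log2 CPM over the 16 mice, among 10989 genes. Marf1 (0.21) and Clcn6 (0.22) were nearest to Grik3, whose own profile had a root mean square of 0.59. Slc38a6 (0.25) and Prdm2 (0.30) were nearest to Grik4, whose own value was 0.70, and the mean CPM of Prdm2 went from 6.34 under vehicle to 18.1 and 16.5 in the 24 h and 48 h mice and 6.50 in the 7-day mice. Ap3b2 (0.15) and Inpp5k (0.16) were nearest to Grik5, and Grik5 itself had 0.36. The profiles of the other three were flatter: Grik2 had 0.29, with Kazn (0.17) and Jarid2 (0.18) nearest, Grik1 had 0.31, with Hdac6 (0.23) and Nme7 (0.24), and Grid1 had 0.32, with Smg5 (0.19) and Rnf8 (0.20).

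Both libraries of a mouse gave similar levels for the 6 genes. The median size of the log2 difference between them lay between 0.06 (Grik2) and 0.19 (Grik4), and the highest was 0.86, for Grid1. Leaving out 24 h mouse 1 and 48 h mouse 1 together, an alternative added after the data were seen, left Grik3 and Grik4 as the 2 genes called at both times.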

How the data were processed

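The authors deposited 32 tables of raw read counts per gene, 2 libraries for each of 16 mice. Per the file headers, they were made with featureCounts over the exons of the GRCm38 Ensembl annotation, and the recorded command sets nothing for pairs, strand, overlaps between genes or multi-mapped reads. The aligner of the RNA reads is not given in the sources used here. Per the labels' protocols, cDNA was made with SMART-seq2 and libraries with Nextera XT. The deposited annotation columns gave the exon length used for RPKM.

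Symbols were matched for 55141 of 55401 IDs (99.5%). The libraries of a mouse were summed and fitted in 1 model over the 4 groups with edgeR 4.0.16 (R 4.3.3, TMM factors, filterByExpr, glmQLFit and glmQLFTest), with Benjamini-Hochberg adjustment over 17941 genes and a threshold of 0.05. The median biological coefficient of variation was 32.4%. SE is the log2 change divided by the square root of F. Log2 CPM had a prior count of 2. The script was tested on simulated data. The members, the lists and the rule for named genes were chosen with earlier results of these data known. All 6 members were named, partners where they passed against vehicle without overlap or were among 9 always named, and the 2 genes most alike to each member. Alternatives were DESeq2 1.42.0, limma 3.58.1 over the libraries, other scalings and filters, single libraries, covariates, thinned counts and leaving out mice. For 3 mice (the first of the 24 h group and the second of both the 48 h and 7-day groups) the header number differs from the label, which was followed. H3K27ac samples were not analysed here. Of the partner genes counted, 4 are not reported by name here.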

Additional observations from a re-analysis of the deposited data

Results flagged for a closer look

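Grik2 in 24 h mouse 2 stood apart from the rest of its group, at 103 CPM where the nearest of the other 3 mice had 86.0. This was 1 of 32 sets of 4 mice examined over 8 measures, of which chance flags about 1 in 20, or 1.6. Without this mouse the log2 change of Grik2 at 24 h was -0.07.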

How the results depend on the processing

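The counts of 2 members called at 24 h and 48 h were the same when any 1 of the 8 mice compared was left out. They were 0 and 0 with the 18S share as a covariate, and 2 and 0 with the mitochondrial share. Over the 4 groups at once the 2 became 0 and 1 with these covariates and 2 to 3 without single mice. Partner calls went from 14 and 15 to 0 and 0 with the 18S share, to 7 and 0 with the mitochondrial share, and to 8 to 13 and 11 to 16 without single mice. At 7 days against vehicle, members called were 0 to 1 and partners 0 to 5 without single mice, and partners were 3 with no filter, 2 with DESeq2 and 4 over the libraries with a correlation within mice. Members called at 7 days against 24 h and 48 h were 1 and 1 with no filter, DESeq2 or without the 3 mice of another header number (added after the data were seen), 1 and 2 over the libraries, and 0 to 1 in both without single mice. Partners there were 4 and 5 with no filter, 2 and 4 with DESeq2, 4 and 5 over the libraries, 2 and 1 without the 3 mice, and 0 to 2 and 0 to 1 without single mice.

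Signs turned only for values that were not called. Grik1 at 24 h was 0.08 with total counts, 0.00 with library 1 alone, 0.42 and 0.04 with the 18S and mitochondrial covariates, 0.04 with thinned counts, 0.02 over the libraries and -0.16 to 0.22 without single mice. Grik2 at 24 h was -0.04 with no filter, -0.60 and -0.05 with the covariates, -0.02 with thinned counts and -0.07 to 0.08 without single mice, and at 48 h -0.31 with the 18S share. Grik5 was 0.45, 0.59 and 0.29 at the 3 times with the 18S share, and 0.16 at 48 h and 0.08 at 7 days with the mitochondrial share. At 7 days it was also 0.02 with total counts or library 1 alone, 0.01 with only the groups compared, 0.12 without the 3 mice and -0.25 to 0.16 without single mice. Grid1 at 24 h was -0.07 without the 2 mice of few genes or without the 3 mice, and -0.07 to 0.20 without single mice. At 7 days it was -0.08 with library 2 alone, -0.06 without the 3 mice and -0.06 to 0.12 without single mice. Grik1 at 48 h was -0.03 without the 3 mice and -0.03 to 0.38 without single mice, and at 7 days 0.00 to 0.37 without single mice. The cause was not tested.

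A replicate block by mouse number changed no member call: Grik3 was 1.00 and 1.33, Grik4 1.11 and 1.12, and Grik2 at 24 h -0.01. The numbers do not pair the mice, since same-numbered mice deviated together with a mean correlation of -0.036 over 24 pairs. With total counts only, the median log2 change of all genes at 24 h was 0.14 in place of 0.03, and 2887 genes were higher and 1403 lower in place of 2477 and 1869. With the 18S share as a covariate 0 of all genes were called at either time. Counts per mouse were lowest for Grid1, at 70 to 209.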
